A study of Rattus norvegicus with 8 samples.

Results

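The fibroblasts described here are cells of injured and sham-operated rat spinal cord. They carried collagen and decorin RNA and little RNA of immune or oligodendrocyte-lineage cells. They were selected on raw UMI counts (unique molecular identifiers, each standing for 1 captured RNA molecule) in all 8 libraries. A cell was kept if at least 1000 UMIs were counted in it, if mitochondrial genes gave at most 10% of them, if Col1a1, Col3a1 and Dcn together had at least 10 UMIs with at least 2 of the 3 genes detected, if Tyrobp had at most 2 UMIs, and if Olig1 and Olig2 had none. Of 68658 cells deposited, 57296 passed the limits on UMIs and mitochondrial genes, and 2113 of these (3.69%) were fibroblasts by this rule. The levels of Col1a1, Col3a1 and Dcn chose the members, so they are given below as a description and not as a result.

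All rats were female Wistar rats of 8 weeks. Injured animals received a weight of 10 g dropped onto the cord at T9, and sham animals had the laminectomy alone. The weight fell from 25 mm in the moderate group and from 50 mm in the severe group, and from a lower height in the mild group. A 10 mm stretch of cord around the site was dissociated 7 days after surgery and sequenced as 3′ single-cell libraries, 2 per group (sham, mild, moderate and severe). The study describes as many sequenced cords as there are libraries, but the labels name no animal or batch for a library, and the p-values below measure the spread between these libraries.

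Fibroblasts make fibrillar collagens, the proteoglycans and glycoproteins that bind them, and the enzymes that trim and cross-link them. In the spinal cord they lie in the meninges and around larger vessels. After a lesion that opens the cord, fibroblasts gather in its core and form the collagen-rich scar, where some take up the contractile genes of myofibroblasts.

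The label was checked against 12 fibroblast markers, of which 11 were found in the files under 1 identifier each (Col6a3 was not). The rule used 3 of the 11 (Col1a1, Col3a1 and Dcn), so their detection and their part of the sum below were fixed by the selection. All 11 were detected in each of the 7 libraries with at least 20 members, and together they gave 17228 to 55447 counts per 1000000 UMIs (CPM). Mgp, a matrix protein that binds calcium, was the highest of the 11 in each of these 7 libraries. Col1a2, the partner chain of Col1a1, was low throughout, at 1.67 to 115 CPM after the trimmed-mean (TMM) scaling used for all library values below unless plain CPM is named. Of the 2113 members, 1749 carried all 3 rule genes, 2019 held at least 20 UMIs of them and 1365 at least 100. The 49 members just inside the limit, with 10 to 14 such UMIs, had 1950 CPM of Mgp and 1632 CPM of Igfbp5, and the 55 cells just outside it, with 5 to 9, had 3001 and 2281 CPM. Tyrobp removed 817 cells that met the limits on UMIs, mitochondrial genes and the 3 rule genes, and the Olig genes alone removed 163. Cells among the 817 that also held Olig UMIs were not counted apart. The limit on Tyrobp removed 336 cells in moderate replicate 1 and 147 in mild replicate 1, against 32 and 63 in the severe libraries. None of the removed cells counts in the shares below, so the order of the libraries there may depend on this limit, which was not tested.

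The members also carried some RNA of other cell types. Tyrobp was at 0 in 1022 members (48.4%), and 682 members held at least 2 UMIs of the endothelial genes Cldn5, Cdh5, Kdr and Flt1. The summed level of 9 endothelial markers was 62.7 to 289 plain CPM in the 7 libraries, and Cdh5 or Cldn5 led it. The 12 macrophage and microglia markers summed to 256 plain CPM in sham replicate 1, to 365 to 678 in the 4 mild and moderate libraries, and to 73.9 and 144 in the severe libraries, with Lyz2 leading in every injured library. Tyrobp is among the 12, and members held at most 2 UMIs of it whatever their depth, a limit that is stricter per UMI in the deeper severe members (median 24106 and 27017 UMIs, against 10897 to 18675.5 in the mild and moderate libraries). The selection so limited the Tyrobp part of this sum, and its part in the differences between groups was not tested. In members with no Tyrobp UMI and at most 1 endothelial UMI, the sum was 239 plain CPM in sham replicate 1. It was 356 to 625 in the 4 mild and moderate libraries, and 56.3 and 117 in the severe libraries. The 8 neutrophil markers summed to 1908 plain CPM in sham replicate 1, of which S100a9 gave 890, and to 20.9 to 88.8 in the 6 injured libraries. Some genes of oligodendrocytes, which form myelin, also differed between the groups. Mag, a myelin glycoprotein, was at 27.8 CPM in sham replicate 1, 9.98 and 13.9 in mild, 4.51 and 4.35 in moderate, and 0.633 and 2.11 in severe, and was called lower after injury and in severe against mild (edgeR, log2 fold changes -2.77 and -3.16, adjusted p = 0.0089 and 0.025). Mog and Mobp were called lower after injury and Cnp in severe against mild. Mural cells, which wrap vessels, share markers with fibroblasts, and 73 members held at least 3 UMIs of Rgs5, Kcnj8, Abcc9, Notch3 and Myh11 together. The part of this RNA in the differences below was not tested beyond the stricter member rules named with them.

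Libraries differed in depth. Members held a median of 10897 to 27017 UMIs in the 7 libraries, with the 2 severe libraries highest, and their summed UMIs ran from 1687921 in mild replicate 2 to 14860429 in severe replicate 1. No member barcode was shared between libraries, and at most 0.452% of the barcodes of the smaller library of any pair were shared. Sham replicate 2 held only 5 members with 17653 UMIs in all, so it did not enter the tests across genes, and sham stands there as 1 library whose spread is taken to be like that of the other groups.

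Both severe libraries also stood apart from the other libraries in genes that are not particular to fibroblasts. Rps19, a ribosomal protein gene, was at 1788 and 1377 plain CPM in the fibroblasts of the severe libraries and at 45.8 to 149 in those of the other 5. The same gene was at 1270 and 1082 plain CPM in the Tyrobp-rich cells of the severe libraries, the cells with more than 2 UMIs of Tyrobp, which macrophages, microglia and neutrophils express, and no Pdgfra UMI, against 37.4 to 180 in those of the other 6 libraries. Sumo4 went the other way in both kinds of cell, with 10.4 and 4.20 plain CPM in severe fibroblasts against 80.0 to 182 in the other 5 libraries. Of 80 ribosomal protein genes tested, 15 were higher and 1 lower in severe than in mild fibroblasts, against 2.27% and 1.76% of all genes, with a median log2 fold change of 0.57, and the median in Tyrobp-rich cells was 0.48. The severe group and whatever set these libraries apart cannot be told apart, and the change in Tyrobp-rich cells of the same libraries is given beside the called genes of the severe comparisons that are described with a fold change.

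The share of fibroblasts differed widely between libraries of the same group. Fibroblasts were 2.97% and 0.189% of the cells that passed in the sham libraries, 3.28% and 1.36% in mild, 3.78% and 2.33% in moderate, and 14.4% and 4.16% in severe. Severe replicate 1 was the highest, with 574 of 3991 cells and a 95% Wilson interval of 13.3 to 15.5%, and sham replicate 2 the lowest, with an interval of 0.0807 to 0.442%. These intervals cover counting error only. Over the 8 libraries the mean share was 4.88% ± 4.76 (SD, n = 6) after injury and 1.58% ± 1.96 (SD, n = 2) in sham, a difference that was not larger than the spread (exact permutation test of 28 splits, two-sided, p = 0.36, smallest possible 0.036). Among cells with at most 2 Tyrobp UMIs and no Ptprc UMI, the means were 20.5% ± 17.1 (n = 6) and 6.31% ± 5.85 (n = 2) (exact permutation test, p = 0.32). The median depth of all cells ran from 3486.5 UMIs in sham replicate 1 to 14073 in severe replicate 2, and a limit of 10 UMIs is met more easily at higher depth. Shares of a suspension cannot tell more fibroblasts from fewer other cells.

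**Figure D1:**
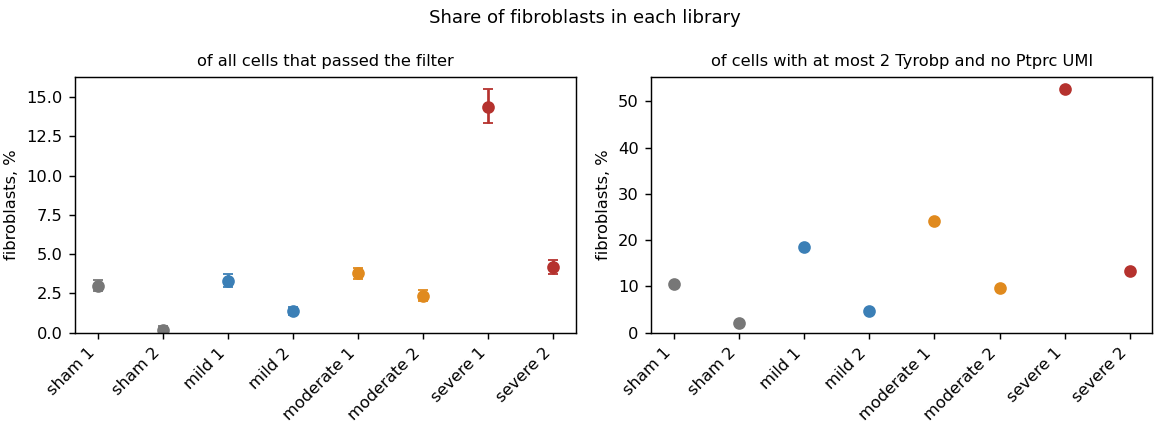
Share of fibroblasts in each of the 8 libraries, in percent of all cells that passed (left, with 95% Wilson intervals) and of cells with at most 2 Tyrobp and no Ptprc UMI (right). Severe replicate 1 is highest in both panels. In the left panel both severe libraries, at 14.4% and 4.16%, lie above the other 6. In the right panel severe replicate 2, at 13.3%, lies below moderate replicate 1, at 24.1%, and mild replicate 1, at 18.4%.

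In the median library, the fibroblasts held most of the RNA of several matrix genes. In the median of 7 libraries they held 65.9% of all Dcn UMIs, 57.7% of Col3a1 and 54.5% of Col1a1, which the rule used, and 54.2% of Mgp and 62.8% of Igfbp5, which it did not. The lowest shares in any of the 7 were 46.9% for Dcn, 44.2% for Col3a1, 43.3% for Col1a1, 41.9% for Mgp and 25.9% for Igfbp5. Among genes of at least 50 plain CPM outside the rule, ranked by this share after the values were seen, Pla2g2a, a secreted phospholipase, led with a median of 74.0% but a range of 0 to 93.8%. Myoc, coding for the secreted protein myocilin, followed with 70.6% (59.7 to 99.8%), and Ogn, a small leucine-rich proteoglycan, with 69.9% (55.3 to 93.3%). Igfbp2, which binds insulin-like growth factors, had 69.2%, and Eln, coding for elastin, had 67.8%. The fibroblast transcription factors Prrx1, Prrx2, Foxc1 and Twist1 lay at 89.8 to 320 CPM in the 7 libraries, and members held 38.6 to 53.6% of their UMIs in the median.

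The mix of the 3 rule genes differed between sham and injury. Dcn, the proteoglycan decorin, gave 84.9% of the UMIs of the 3 genes in sham replicate 1 and 85.1% in the 5 cells of sham replicate 2, against 16.9 to 48.6% in the 6 injured libraries. Its level was 14106 CPM in sham replicate 1, 3359 and 4602 CPM in mild, 1963 and 1369 CPM in moderate and 3853 and 4695 CPM in severe. Col1a1 had 923 CPM in sham replicate 1 and between 1955 CPM in severe replicate 2 and 5003 CPM in moderate replicate 1 after injury. Col3a1 had 1585 CPM in sham replicate 1 and between 1823 CPM in mild replicate 2 and 5408 CPM in severe replicate 1. All 6 injured libraries were above sham replicate 1 for both collagens and below it for Dcn. The 5 cells of sham replicate 2 held 41 UMIs of Col1a1 and 63 of Col3a1 among 17653 in all. Per UMI, without TMM scaling, they were not below all injured libraries for either collagen.

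**Figure D2:**
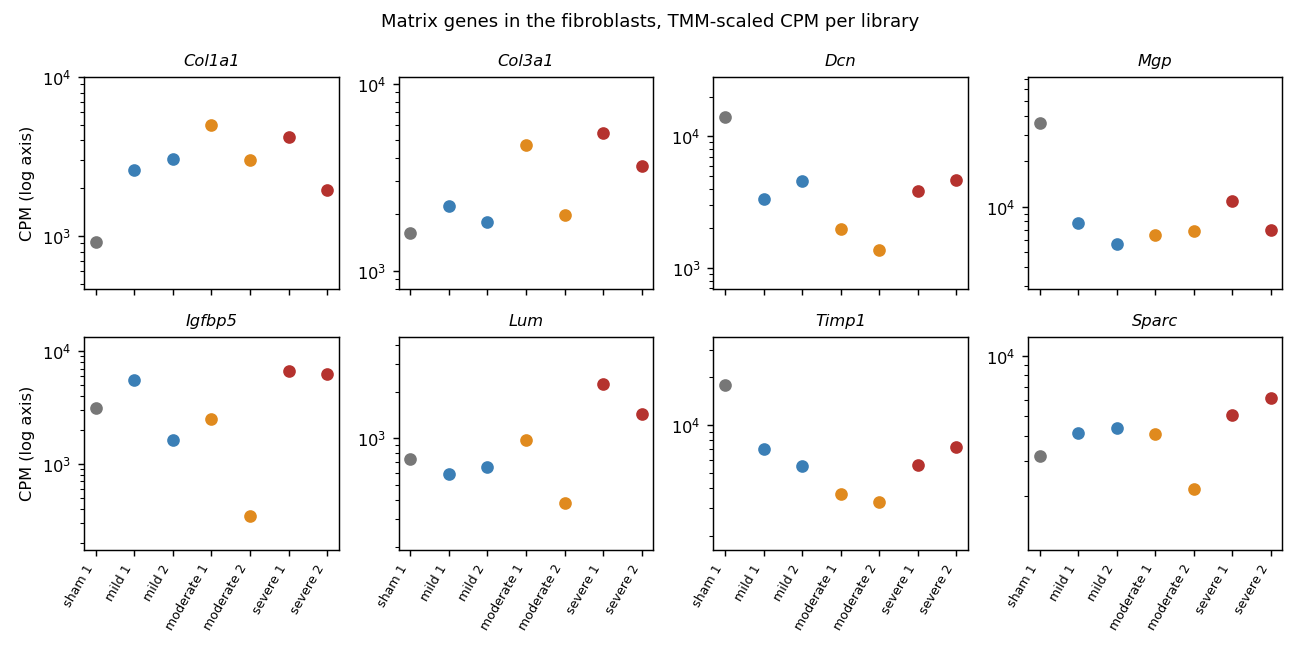
TMM-scaled CPM (log axes) of 8 matrix genes in the fibroblasts, 1 point for each of the 7 libraries with at least 20 members. Dcn, Mgp and Timp1 are highest in sham replicate 1, and Col1a1 and Col3a1 are lowest there.

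Mgp (ENSRNOG00000005695) and Igfbp5 did not take part in the rule. Mgp was at 36129 CPM in sham replicate 1, 7808 and 5668 in mild, 6525 and 6935 in moderate, and 10952 and 6989 in severe. Sham replicate 1 was above all 6 injured libraries. The cells of sham replicate 2 were not, since on the plain CPM scale 4 of its 5 cells together were at 2463 and the other cell at 3527, below the 5777 to 9318 of the injured libraries. Mgp fell by 2.29 on the log2 scale after injury (SE 0.26, edgeR quasi-likelihood test, adjusted p = 0.0034), and had a log2 fold change of -1.89 in Tyrobp-rich cells, with adjusted p = 0.98 for the difference between the kinds of cell. The call was lost when the 5 cells of sham replicate 2 entered the fit. Igfbp5, which binds insulin-like growth factors, was at 3156 CPM in sham replicate 1, 5588 and 1629 in mild, 2499 and 346 in moderate, and 6647 and 6298 in severe, and did not pass in any of the 4 comparisons. Among the most abundant other matrix genes, Sparc, coding for a collagen-binding glycoprotein, ranged from 2178 to 6170 CPM and Bgn, coding for biglycan, from 597 to 1448 CPM, neither called in any comparison.

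To ask what injury changed, the mean of the 3 injured groups was compared with sham. Of 11921 genes tested, 320 were higher (2.68%) and 466 lower (3.91%) in injured fibroblasts (edgeR, adjusted p under 0.05). Genes of the cell cycle, contractile and matrix glycoprotein lists were among the higher ones. Genes of the cytokine and chemokine list were among the lower ones, as were Mt1, Mt2A and Igf2. With each library divided by its total in place of TMM scaling, 51.2% of the calls were higher, against 40.7% here. The 786 calls were 468 without mild replicate 1 and 263 with the stricter members. All of these values rest on the 274 sham fibroblasts of 1 library.

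Of the 43 cell cycle genes tested, 28 were higher and none lower, against 2.68% of all genes called higher. The median log2 fold change of the 43 was 2.49 and that of all genes 0.00. Cenpf (ENSRNOG00000003388), a kinetochore protein, was at 6.91 CPM in sham replicate 1, 163 and 202 in mild, 205 and 158 in moderate, and 171 and 141 in severe. It rose by 4.64 on the log2 scale (SE 0.35, edgeR, adjusted p = 0.00096), with all 6 injured libraries above sham. Ccnb1, the cyclin that drives entry into mitosis, was at 3.56 CPM in sham, 67.3 and 89.4 in mild, 89.2 and 86 in moderate, and 94 and 63.6 in severe (log2 fold change 4.51, SE 0.41, edgeR, adjusted p = 0.0017). Cdc20, an activator of the complex that ends mitosis, was at 6.07 CPM in sham, 176 and 168 in mild, 107 and 105 in moderate, and 118 and 120 in severe (log2 fold change 4.41, SE 0.27, edgeR, adjusted p = 0.0004). Pttg1, Cdkn3, Cdca3, Ube2c, Cenpw, Knstrn and Birc5, all genes of the mitotic cell, completed the 10 largest rises among genes of at least 50 plain CPM that were at least as high in fibroblasts as in other cells, with log2 fold changes of 3.17 to 4.15. Below that level, Plk1 and Cenpa rose by 4.58 and 4.52. Mki67, the common marker of dividing cells, was at 12.1 CPM in sham and 50.6 to 156 after injury, and Top2a, which untangles replicated DNA, at 20.1 and 94.9 to 154.

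The promoters of Ccnb1, Cdc20 and the mitotic kinase gene Plk1 are shown because these genes moved together. Each stretch holds the 250 bases before the gene's start in RefSeq (build GRCr8, not the build of the files), 5′ to 3′ on the gene's strand, and capitals mark CCAAT and TTTGAA, searched on both strands. Ccnb1 lies at chr2:33655226-33655475 on the minus strand, Cdc20 at chr5:137255800-137256049 on the minus strand and Plk1 at chr1:186147408-186147657 on the plus strand.
Ccnb1: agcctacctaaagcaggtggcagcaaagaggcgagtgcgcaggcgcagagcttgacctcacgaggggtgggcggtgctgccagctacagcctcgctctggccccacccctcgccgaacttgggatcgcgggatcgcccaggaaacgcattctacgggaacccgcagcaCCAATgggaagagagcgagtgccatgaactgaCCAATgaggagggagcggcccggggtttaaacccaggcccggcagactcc
Cdc20: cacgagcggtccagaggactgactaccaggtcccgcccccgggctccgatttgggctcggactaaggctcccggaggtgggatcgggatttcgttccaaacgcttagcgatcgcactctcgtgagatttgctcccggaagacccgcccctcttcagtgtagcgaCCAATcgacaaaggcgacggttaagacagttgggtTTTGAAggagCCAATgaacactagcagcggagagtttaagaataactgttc
Plk1: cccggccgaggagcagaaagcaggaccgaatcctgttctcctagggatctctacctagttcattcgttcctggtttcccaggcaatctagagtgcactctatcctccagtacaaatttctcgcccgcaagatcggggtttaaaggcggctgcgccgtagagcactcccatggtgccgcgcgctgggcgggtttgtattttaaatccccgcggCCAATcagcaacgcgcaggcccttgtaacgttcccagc
CCAAT stood in 19 of the 23 higher cell cycle genes that had an entry (82.6%) and in 34.3% of all 27457 promoters of this length, and TTTGAA in 9 of 23 (39.1%) and in 16.03%. Both are matches of letters only.

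In Tyrobp-rich cells of the same libraries Cenpf had a log2 fold change of 2.97 and Ccnb1 of 2.83. This comparison used sham replicate 1 alone, although sham replicate 2 held 2389 Tyrobp-rich cells. With these cells thinned to 1000 UMIs, Mki67 was in 1.01% in sham replicate 1, 5.53% in sham replicate 2 and 1.25 to 9.68% after injury. Top2a was in 0.948%, 5.66% and 1.09 to 5.70%. What sham replicate 2 would change in the test of the difference was not tested. The rise was larger in fibroblasts for 7 of the 28 genes by a test of the difference (edgeR, adjusted p under 0.05), with Cenpf at adjusted p = 0.045 and Ccnb1 at 0.083. Of all 320 genes called higher it was larger for 77, a similar share. The count of 28 was 24 to 29 when each injured library was left out in turn. It was 5 when only members with no Tyrobp UMI and at most 1 endothelial UMI were kept, which leaves 86 cells in sham and drops moderate replicate 2, and the median log2 fold change was then 0.79. Those stricter members had 1127 plain CPM of the cell cycle list in sham replicate 1 and 1965 to 2748 in the 5 injured libraries kept, and the remaining members had 808 in sham and 2822 to 4862 in the 6 injured libraries. Cenpf, Ccnb1, Cdc20 and Cenpa, a centromere histone, were among those called under every alternative run.

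**Figure D3:**
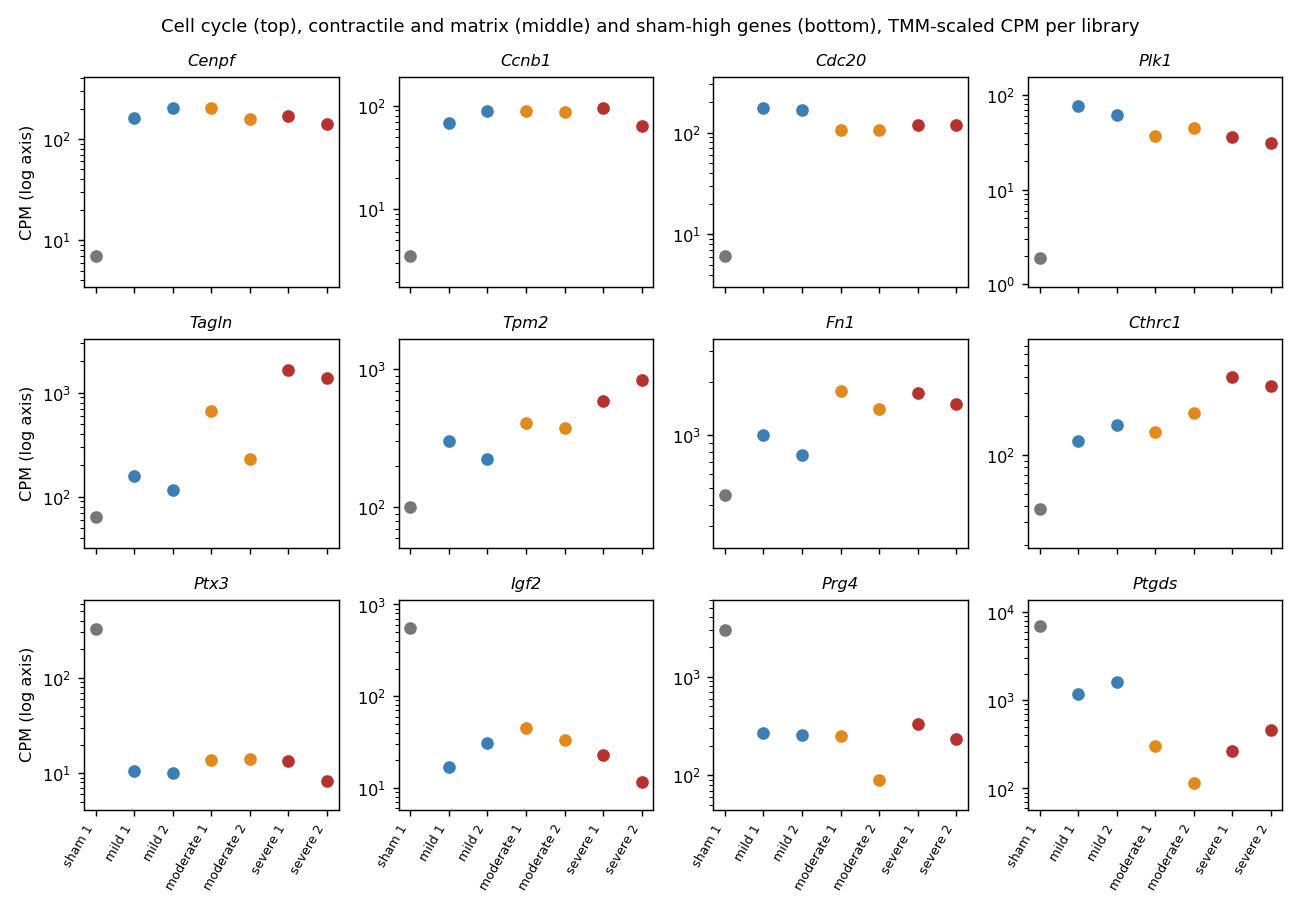
TMM-scaled CPM (log axes) of 12 genes in the fibroblasts of 7 libraries, with sham replicate 1 in grey, mild in blue, moderate in orange and severe in red. Sham is lowest for the 8 genes of the upper rows and highest for the 4 of the bottom row.

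Contractile and cytoskeletal genes were higher after injury in 13 of 28 tested (median log2 fold change 1.34), with 1, Ccn2, lower, against 2.68% higher and 3.91% lower of all genes. The call of Ccn2 was kept under 5 of 17 alternatives, and was lost with the stricter members and with sham replicate 2 in the fit, among others. Tpm2, a tropomyosin of the actin filament, was at 101 CPM in sham replicate 1, 302 and 223 in mild, 407 and 374 in moderate, and 592 and 834 in severe (log2 fold change 2.05, SE 0.31, edgeR, adjusted p = 0.011). Actn1, which cross-links actin, was at 41 CPM in sham and 111 to 235 after injury and rose by 1.92 (SE 0.27, edgeR, adjusted p = 0.0076), with no overlap. Tagln, coding for transgelin and common in myofibroblasts, rose by 2.83 (SE 0.60, edgeR, adjusted p = 0.035), a call lost without mild replicate 1, without mild replicate 2 and without the mural-type members, while the log2 fold change was 2.51 to 3.02 when 1 library was left out. Vim, the intermediate filament of mesenchymal cells, was at 3271 CPM in sham and 7964 to 13988 after injury (log2 fold change 1.58, edgeR, adjusted p = 0.031), a call lost without mild replicate 1, without mild replicate 2, with the stricter members and with sham replicate 2 in the fit. Acta2, the myofibroblast actin, was at 20.9 CPM in sham and 4.63 to 205 after injury, overlapped, and was not called (adjusted p = 0.71). For 10 of the 13 the rise was larger than in Tyrobp-rich cells by the test of the difference, against 77 of all 320 genes called higher. The count of 13 was 7 without mild replicate 1 and 10 with the stricter members.

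The matrix list split. Of 53 matrix glycoproteins 7 were higher (Fn1, Postn, Tnc, Fbln2, Fbn2, Cthrc1 and Spp1) and 4 lower (Fbln1, Edil3, Mgp and Spon1), with a median of 0.07, against 2.68% and 3.91% of all genes. The lower count was 2 to 6 when 1 library was left out. Fn1, coding for fibronectin, was at 451 CPM in sham, 1000 and 765 in mild, 1767 and 1404 in moderate, and 1734 and 1503 in severe (log2 fold change 1.54, SE 0.28, edgeR, adjusted p = 0.021). The call of Fn1 was lost with rule UMIs of at least 0.2%, with cells within 2 SD and with sham replicate 2 in the fit. Cthrc1, a secreted protein of remodelling tissue, was at 37.9 CPM in sham and 128 to 398 after injury (log2 fold change 2.50, SE 0.33, edgeR, adjusted p = 0.0062), a call lost with the stricter members. Postn, coding for periostin, was at 54.6 CPM in sham, 243 and 568 in mild, 391 and 730 in moderate, and 226 and 153 in severe, above sham in all 6 (edgeR, adjusted p = 0.041). Spp1, coding for osteopontin, was at 82.5 CPM in sham and 275 to 1007 after injury, but at 13044 plain CPM in Tyrobp-rich cells, where its log2 fold change was 3.77 against 2.49 in fibroblasts (difference, edgeR, adjusted p = 0.0086). Of 23 collagen chains tested beside those of the rule, none was higher and 2 low genes, Col4a4 and Col9a2, were lower. The call of Col9a2 was lost without any 1 of 5 injured libraries, and that of Tll1 below without any 1 of 4. Col8a1, the highest of them at 503 CPM in sham and 681 to 1984 after injury, was not called. Of 27 collagen processing genes, Serpinh1, the collagen chaperone, and Loxl2, a cross-linking enzyme, were higher and Tll1, at no more than 1.36 CPM in any injured library, was lower. Loxl2 was at 31 CPM in sham and 76 to 241 after injury (log2 fold change 1.9996, SE 0.28, edgeR, adjusted p = 0.0076), while the call of Serpinh1 was lost whichever injured library was left out.

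**Figure D4:**
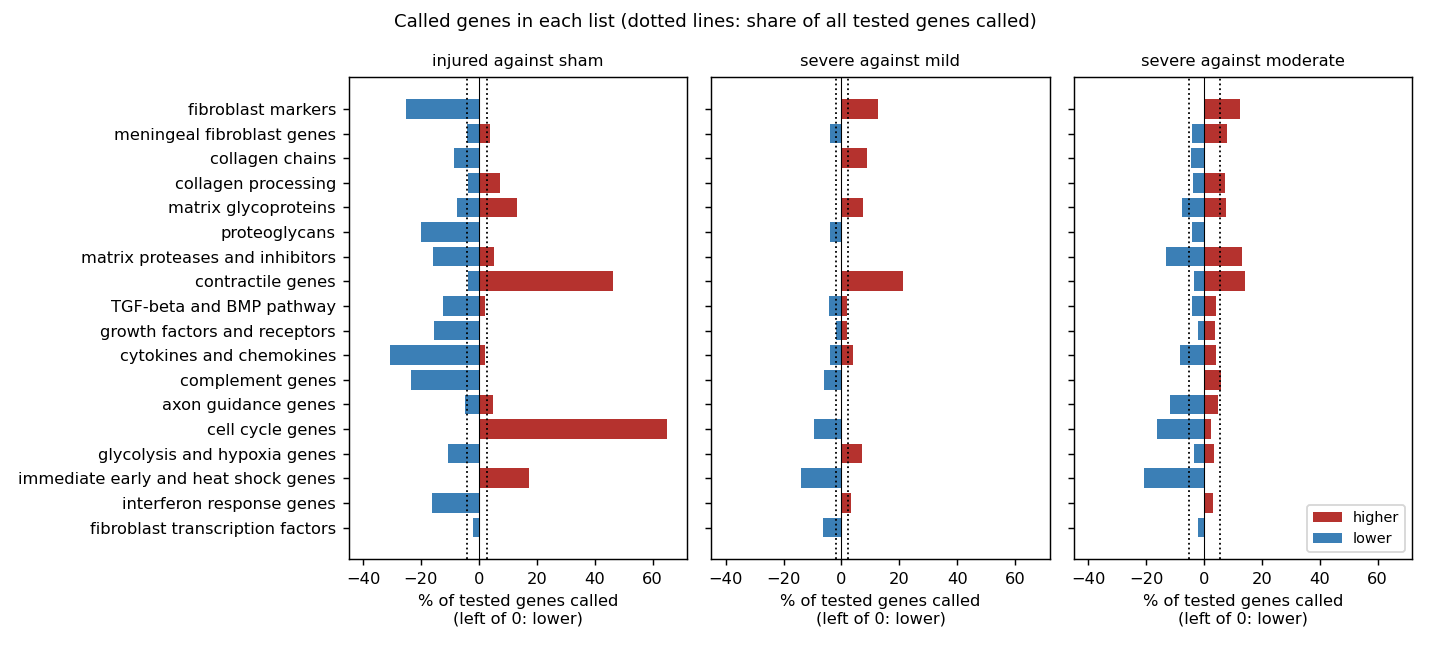
Percent of the tested genes of 18 lists called higher (red, right of 0) or lower (blue, left of 0) in 3 comparisons of fibroblasts, with dotted lines at the percent of all tested genes. The cell cycle list reaches 28 of 43 genes higher after injury.

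The falls described next are the 10 largest among genes of at least 50 plain CPM that were at least as high in fibroblasts as in other cells. Genes outside these limits fell further, among them Pi15 (-6.08), Cxcl3 (-6.02) and Mmp8 (-5.47 on the log2 scale). Ptx3 (ENSRNOG00000012280), a secreted pentraxin that binds complement, was at 329 CPM in sham replicate 1, 10.5 and 9.99 in mild, 13.9 and 14.1 in moderate, and 13.4 and 8.31 in severe, and fell by 4.82 on the log2 scale (SE 0.21, edgeR, adjusted p = 0.00015). Igf2, a growth factor that meningeal fibroblasts make, was at 561 CPM in sham and 11.7 to 45.3 after injury (log2 fold change -4.48, SE 0.31, edgeR, adjusted p = 0.00071). The metallothioneins Mt2A and Mt1, which bind zinc, were at 2196 and 3168 CPM in sham and at 81.1 to 154 and 155 to 365 after injury. Mt1 fell by 3.64 and was at a log2 fold change of 0.07 in Tyrobp-rich cells, a difference that passed (edgeR, adjusted p = 0.0034). Prg4, the lubricant proteoglycan, was at 3017 CPM in sham and 89.8 to 332 after injury (log2 fold change -3.70, SE 0.37, edgeR, adjusted p = 0.0024). Ptgds, the prostaglandin D synthase of the meninges, was at 6895 CPM in sham, 1171 and 1607 in mild, 305 and 115 in moderate, and 269 and 455 in severe, and fell by 3.87 (SE 0.39, edgeR, adjusted p = 0.0025). Its log2 fold change in Tyrobp-rich cells was -5.02 (difference, adjusted p = 0.069). Chi3l1, a secreted chitinase-like protein, had -3.85 in fibroblasts and -3.92 in Tyrobp-rich cells. Rbp4, Gsta1 and Cxcl14 were the other 3 of these 10. The neutrophil marker sum was at its highest in the same sham library, and 6 of the 7 neutrophil markers tested were called lower after injury, against 3.91% of all genes. The part of that RNA in these falls was not tested.

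Of 49 cytokine and chemokine genes 15 were lower and 1 higher, against 3.91% of all genes called lower. The fall was larger than the change in Tyrobp-rich cells for 5 of the 15, near the share of all genes called lower (117 of 466). The summed neutrophil markers were at 1908 plain CPM in the sham library against 20.9 to 88.8 after injury, and their part in these falls was not tested. Cxcl14 was at 412 CPM in sham and 14.3 to 51.1 after injury, and Cxcl3, which draws neutrophils, at 220 CPM in sham and 0.544 to 18.8 after injury. Il33, an alarm cytokine of stromal cells, was at 1694 CPM in sham and 342 to 857 after injury (log2 fold change -1.63, edgeR, adjusted p = 0.036), and had a log2 fold change of 1.13 in Tyrobp-rich cells (difference, adjusted p = 0.0061). Its call was lost without mild replicate 1, mild replicate 2 or moderate replicate 1, and with sham replicate 2 in the fit. Cxcl1 and Ccl2, which draw neutrophils and monocytes, were highest in moderate replicate 2, at 1389 and 1164 CPM, and were not called. The count of 15 was 7 with the stricter members. Of 52 growth factor and receptor genes 8 were lower (Fgf7, Igf2, Igfbp2, Igfbp4, Vegfa, Vegfb, Ntf3 and Frzb) and none higher, a count that was 3 to 9 when 1 library was left out. The fall differed from the change in Tyrobp-rich cells for 3 of the 8, against 117 of all 466 genes called lower. Of 17 complement genes C4b, C7, Cd55 and Masp1 were lower, a count that was 3 to 8 when 1 library was left out, with the call of C4b lost without any 1 of the 4 mild and moderate libraries and that of Masp1 without either mild library or moderate replicate 1. For 0 of the 4 genes did the fall differ from the change in Tyrobp-rich cells (edgeR, adjusted p under 0.05), against 117 of all 466 called lower. Of 31 interferon response genes Ifit3, Bst2, Ifitm2, Ifitm3 and B2m were lower, of which Ifitm2 and Ifitm3 lost their calls without mild replicate 1 or mild replicate 2. Bst2, Ifitm2, Ifitm3 and B2m lost theirs with the stricter members, and the last 3 also with sham replicate 2 in the fit. Of 48 genes of the TGF-beta and BMP pathway 6 were lower, among them the receptor genes Tgfbr2 and Tgfbr3, a count that was 1 to 7 when 1 library was left out, and Tgfb1 was higher, at 55.7 CPM in sham and 111 to 188 after injury. Of 38 proteases and inhibitors 2 were higher (Adamts8 and Adam19) and 6 lower, against 2.68% and 3.91% of all genes. Adamts8 rose by 3.67 on the log2 scale, a call lost with the stricter members and with cells within 2 SD. Among the lower was Timp1, the inhibitor of matrix metalloproteinases, at 17958 CPM in sham and 3261 to 7290 after injury (log2 fold change -1.79, SE 0.22, edgeR, adjusted p = 0.0052). The call of Timp1 was lost with the stricter members and with sham replicate 2 in the fit. With members thinned to 1000 UMIs, Timp1 was detected in 89.1% of those of sham replicate 1 and in 20.6% of the 5 cells of sham replicate 2. Of 25 proteoglycans 5 were lower, among them Esm1 at 915 CPM in sham and 138 to 247 after injury.

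Meningeal fibroblast genes did not move as a group. Of 25 tested, Cdh1, the epithelial cadherin of arachnoid cells, was higher at 2.09 CPM in sham and 10.1 to 26.5 after injury, and Ptgds was lower. The call of Cdh1 was lost with the stricter members and with cells within 2 SD. S100a6 and Crabp2, the most abundant members besides Ptgds and Fxyd5, were not called between injury and sham. Of 48 fibroblast transcription factors only Meox1 was called, and lower, a call that did not hold in every fit without 1 library. Prrx1 was at 89.8 CPM in sham and 133 to 199 after injury. Of 29 immediate early and heat shock genes 5 were higher (Fosb, Atf3, Ier2, Ier3 and Btg2), a count that was 1 without either mild library. Such genes can respond to dissociation, which was not tested. Of 42 axon guidance genes 2 were higher (Plxnb2 and Efnb1) and 2 lower, near the 2.68% and 3.91% of all genes, and both higher calls were lost without mild replicate 1 or mild replicate 2. Of 28 glycolysis and hypoxia genes Pkm, Vegfa and Hif1a were lower. The call of Hif1a was lost with the replicate number as a block, the stricter members, cells within 2 SD and sham replicate 2 in the fit.

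Moderate and mild fibroblasts were compared to ask whether the height of the drop mattered below the severe grade. No gene was called (0%, edgeR, adjusted p under 0.05), 2495 had an unadjusted p under 0.05, and DESeq2 called 363. Tnc, coding for tenascin C, had 129 and 75.5 CPM in mild and 337 and 384 in moderate (log2 fold change 1.81, SE 0.33, edgeR, adjusted p = 0.11).

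Between severe and mild fibroblasts, 271 genes were higher (2.27%) and 210 lower (1.76%) in severe (edgeR, adjusted p under 0.05). Among genes of at least 50 plain CPM that were at least as high in fibroblasts as in other cells, 7 of the 10 largest rises were those of Rps19, Rps6, Rpl38, Ppia, Ndufs5, H2afj and Tuba1c, whose log2 fold changes in Tyrobp-rich cells were 1.69 to 5.32. Ppial4d, Tagln and Vcl were the other 3, and below that level Mfap4, Col1a2 and Tpi1 rose by 4.93, 4.05 and 3.67, with 3.86, 2.78 and 3.62 in Tyrobp-rich cells. The 481 calls were 79 without mild replicate 1, 64 without mild replicate 2 and 116 without severe replicate 1. In 32 of the 481 called genes the change in fibroblasts was larger in its direction than that in Tyrobp-rich cells by the test of the difference (6 higher and 26 lower). With mitochondrial, ribosomal protein and unnamed genes left out of the fit, 133 genes were called. Scaling by library totals, under which the median log2 fold change of all genes moved from -0.01 to -0.37, called 1255 genes of which 14.2% were higher, against 56.3% here.

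Contractile genes were higher in severe than in mild fibroblasts in 6 of 28 (Tagln, Cnn1, Cnn2, Tpm2, Tpm4 and Vcl; median 0.66) and lower in none, against 2.27% and 1.76% of all genes. Tagln was at 157 and 117 CPM in mild, 662 and 230 in moderate, and 1658 and 1397 in severe, with no overlap (log2 fold change against mild 3.47, SE 0.48, edgeR, adjusted p = 0.016). Its log2 fold change in Tyrobp-rich cells was 2.12, and the difference did not pass (adjusted p = 0.23). Vcl, coding for vinculin of focal adhesions, was at 58.2 and 50 CPM in mild and 273 and 203 in severe (log2 fold change 2.13, SE 0.24, edgeR, adjusted p = 0.006), with 2.32 in Tyrobp-rich cells (difference, adjusted p = 0.89). Acta2 was at 7.98 and 12.2 CPM in mild and 205 and 80.6 in severe, which did not pass (log2 fold change 3.89, SE 0.96, edgeR, adjusted p = 0.065). No contractile gene was called without mild replicate 1 or without mild replicate 2, when mild stands as 1 library, and 10 were called with the stricter members. None of the 6 differed from the change in Tyrobp-rich cells by the test, against 6 of all 271 genes called higher. Of the matrix glycoproteins Tnc, Thbs1, Mfap4 and Cthrc1 were higher, and of 23 collagen chains Col1a2 and Col5a2, and both counts fell to 0 when 1 library was left out. Cthrc1 lost its call without mild replicate 1, mild replicate 2 or severe replicate 1, and so did Col1a2. Col5a2, which trims the width of collagen fibrils, was at 83.6 and 105 CPM in mild and 207 and 235 in severe (log2 fold change 1.24, SE 0.23, edgeR, adjusted p = 0.037), a call lost without any 1 of the 4 libraries, with 2.81 in Tyrobp-rich cells (difference, adjusted p = 0.11). Lum, coding for lumican, was at 590 and 653 CPM in mild and 2244 and 1433 in severe and was not called.

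Of 29 immediate early and heat shock genes 4 were lower in severe than in mild fibroblasts (Fos, Fosb, Ier2 and Klf4) and none higher, against 1.76% of all genes called lower, and 2 to 5 were lower when 1 library was left out. Fos lost its call without either mild library, either moderate library or severe replicate 1. Fosb, a subunit of the AP-1 factor, was at 896 and 1274 CPM in mild, 652 and 656 in moderate, and 236 and 174 in severe, near the 179 CPM of sham replicate 1. It fell by 2.40 against mild (SE 0.26, edgeR, adjusted p = 0.0049) with a log2 fold change of -0.91 in Tyrobp-rich cells, and the fall was larger in fibroblasts (difference, edgeR, adjusted p = 0.027). Klf4, a zinc finger factor, was at 454 and 373 CPM in mild and 109 and 90.7 in severe (log2 fold change -2.05, SE 0.22, edgeR, adjusted p = 0.0053), with a change of 0.07 in Tyrobp-rich cells (difference, adjusted p = 0.039). Aldh1a2, the meningeal enzyme that makes retinoic acid, was at 105 and 274 CPM in mild, 236 and 230 in moderate and 55.2 and 46.9 in severe (log2 fold change against mild -1.88, SE 0.40, edgeR, adjusted p = 0.049), a call lost without mild replicate 2, either moderate or either severe library, with 0.23 in Tyrobp-rich cells (difference, adjusted p = 0.15). The transcription factors Zic2, Hic1 and Heyl were lower, from 18 and 30.5, 56.1 and 62.7, and 16.5 and 32.2 CPM in mild to 7.04 and 5.70, 21.2 and 22.6, and 4.90 and 5.58 CPM in severe, each call lost without mild replicate 2 and without severe replicate 1. For none of the 3 did the difference from Tyrobp-rich cells pass, where the log2 fold changes were -0.97, 1.94 and -0.69 (difference, edgeR, adjusted p = 0.62, 0.087 and 0.31). Macrophage marker RNA was lower in severe fibroblasts as well, with Fcer1g, Cd68 and Csf1r called, 3 of 11 tested, against 1.76% of all genes. The part of the limit on Tyrobp in this was not tested.

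**Figure D5:**
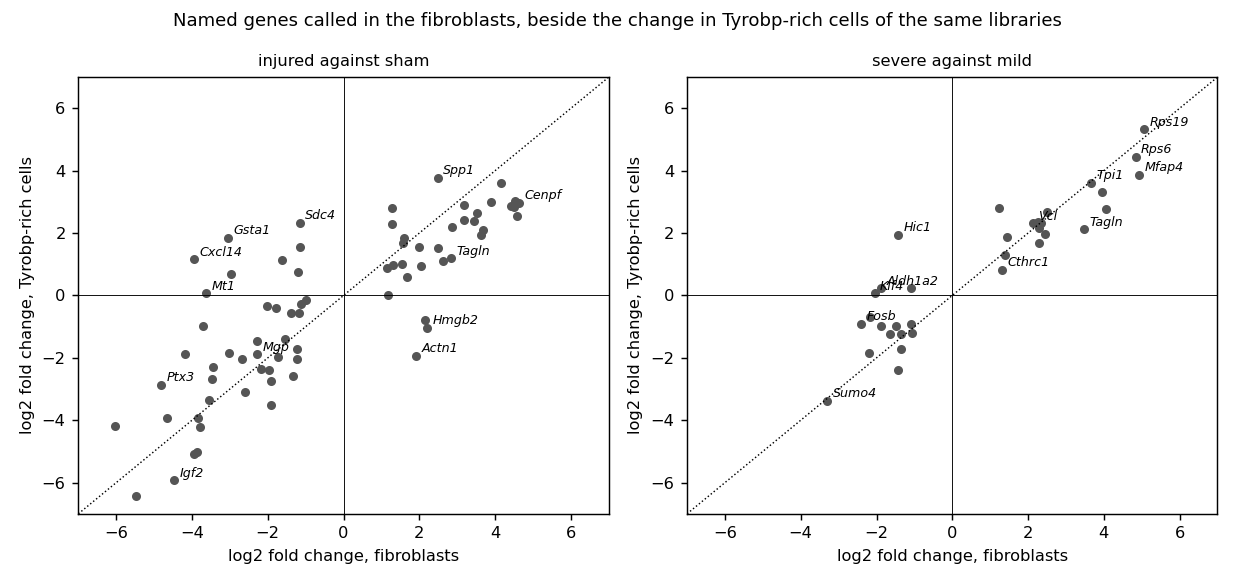
Log2 fold change of the named genes called in fibroblasts (horizontal) beside the change in Tyrobp-rich cells of the same libraries (vertical), for injured against sham (left) and severe against mild (right), with the line of equal change dotted. Rps19 and Rps6 lie near the line in the right panel, and Actn1 and Hmgb2 lie right of 0 and below 0 in the left panel.

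Between severe and moderate fibroblasts, 653 genes were higher (5.48%) and 618 lower (5.18%) in severe (edgeR, adjusted p under 0.05). For 71 of these 1271 the change was larger than that in Tyrobp-rich cells by the test of the difference, and scaling by library totals called 2685 genes of which 9.68% were higher, against 51.4% here. The count was 105 without moderate replicate 2, 307 to 753 without any 1 of the other 5 injured libraries, and 56 with the stricter members. Clu, coding for the secreted chaperone clusterin, was at 130 and 95.5 CPM in moderate and 824 and 981 in severe (7.98-fold higher, log2 SE 0.48, edgeR, adjusted p = 0.019), against a log2 fold change of 0.30 in Tyrobp-rich cells (difference, adjusted p = 0.0063). Crabp2, which carries retinoic acid, was at 247 and 176 CPM in moderate and 1030 and 953 in severe (log2 fold change 2.23, SE 0.38, edgeR, adjusted p = 0.023). Pcolce, an enhancer of collagen trimming, was at 549 and 251 CPM in moderate and 1455 and 1733 in severe (log2 fold change 1.99, SE 0.40, edgeR, adjusted p = 0.03), and Serpinf1, a secreted inhibitor of vessel growth, at 606 and 246 and at 1568 and 2124 CPM. Loxl2 went the other way, from 241 and 170 CPM to 76 and 77.9 (log2 fold change -1.42, SE 0.22, edgeR, adjusted p = 0.017). In Tyrobp-rich cells the log2 fold changes of Crabp2, Pcolce, Serpinf1 and Loxl2 were 1.27, 1.21, 1.12 and -1.30, and the difference between the cell kinds passed for none of the 4 (edgeR, adjusted p = 0.12, 0.79, 0.78 and 0.83). All 5 of these calls were lost with the stricter members, which leave moderate as 1 library. Clu and Crabp2 were also lost without moderate replicate 2, Loxl2 without severe replicate 2, and Pcolce and Serpinf1 without moderate replicate 2 or either severe library.

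By list, 10 of 38 proteases and inhibitors passed between severe and moderate, against 5.48% higher and 5.18% lower of all genes, with 5 higher (Mmp23, Timp2, Fap, Ctsk and Serpinf1) and 5 lower (Mmp9, Mmp12, Adamts8, Adamts15 and Adam19). When 1 library was left out, 0 to 7 were higher and 0 to 5 lower, and Timp2 lost its call without either mild library, moderate replicate 2 or severe replicate 2. Mmp9 and Mmp12, enzymes known from macrophages and neutrophils, averaged 7.99 and 3.47 plain CPM in fibroblasts and 38.2 and 29.4 in Tyrobp-rich cells. Of 43 cell cycle genes 7 were lower and 1, Ube2c, higher, among the lower ones Mki67 at 156 and 131 CPM in moderate and 73.1 and 50.6 in severe (log2 fold change -1.21, edgeR, adjusted p = 0.027), with -1.26 in Tyrobp-rich cells (difference, adjusted p = 0.92). None of the 43 was called with the stricter members or without moderate replicate 2, and Ube2c lost its call without any 1 of the 6 injured libraries. Of 29 immediate early and heat shock genes 6 were lower (0 to 7 when 1 library was left out) and none higher. Of 42 axon guidance genes 5 were lower (0 to 5), among them the semaphorin receptor genes Nrp1 and Plxnd1, and 2 were higher (0 to 2), a count no larger than the share of all genes gives. Of 11 macrophage and microglia markers 5 were lower in severe fibroblasts, and the part of the limit on Tyrobp in this was not tested.

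Shares of single fibroblasts with a UMI were compared after thinning every cell to 1000 UMIs, with no test. Sham here is sham replicate 1 unless replicate 2 is named, and ranges of Tyrobp-rich cells cover the 7 libraries with at least 20 members. Lum was found in 43.1% of the thinned fibroblasts of sham replicate 1 and in a median of 47.1% (33.3 to 56.5%) in the 6 injured libraries, and in 0.0874 to 0.921% of Tyrobp-rich cells. Before thinning, at the full depth of each cell, Lum was in 83.2% of fibroblasts in sham and 67.9 to 82.0% after injury. Fn1 was found in 27.6% in sham and 39.6 to 67.6% after injury, but in 3.94 to 31.3% of Tyrobp-rich cells (unthinned 77.0% and 88.7 to 98.0% in fibroblasts). In sham replicate 2, Fn1 was in 51.3% of the 5 fibroblasts, within the injured range, and in 0.855% of Tyrobp-rich cells. Postn and Mki67 were in 0% of these 5 fibroblasts. Postn was found in 3.44% in sham and 7.70 to 35.5% after injury, against at most 0.401% of Tyrobp-rich cells (unthinned 12.8% and 29.3 to 65.1% in fibroblasts). Timp1 was in 89.1% in sham and 87.8 to 91.4% after injury (unthinned 99.3% and 99.1 to 99.8%), and in 10.7 to 22.6% of Tyrobp-rich cells. Its share in fibroblasts is near the ceiling and cannot show a change in level. Aldh1a2 was in 5.33% in sham and 3.11 to 21.2% after injury (unthinned 21.5% and 14.8 to 65.1%), and in at most 0.238% of Tyrobp-rich cells. Acta2 was in 0.520% in sham and 0.527 to 8.00% after injury (unthinned 4.38% and 2.61 to 17.4%), against up to 0.516% of Tyrobp-rich cells. Mki67 was in 0.892% in sham and 3.21 to 10.6% after injury, a range that overlapped the 1.01 to 9.68% of Tyrobp-rich cells (unthinned 6.20% and 25.8 to 51.3%). Pdgfra, a receptor of fibroblasts, was in 20.7% in sham and 4.91 to 23.4% after injury (unthinned 79.6% and 56.1 to 87.5%), and Rgs5, a pericyte gene, in at most 1.57% (unthinned 2.44%) in any of the 7 libraries.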

How the data were processed

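The authors deposited 1 filtered matrix per library of UMI counts per gene and cell, unnormalized, made with Cell Ranger 5.0.1 per the file headers on the rat build Rnor_6.0. The files held 32623 genes, and the mild drop height was 12.5 mm. Here, fibroblasts were selected by the stated rule, their counts were summed per library, and the sums were scaled by TMM to counts per 1000000 UMIs (CPM). Genes kept by the edgeR filter on low counts (11921) were tested with the edgeR quasi-likelihood test (edgeR 4.0.16, R 4.3.3) on 7 libraries and 4 groups, with 3 residual degrees of freedom and Benjamini-Hochberg adjustment at 0.05. All groups shared 1 estimate of the spread. The difference between fibroblasts and Tyrobp-rich cells (more than 2 Tyrobp UMIs, no Pdgfra UMI) was tested on the log2 scale in 1 edgeR model over both sums. This model and the fit of Tyrobp-rich cells used the same 7 libraries, so sham was 1 library there too. Libraries under 20 members were left out. Cell sums, shares and figures were made in Python 3.11.15, and DESeq2 1.42.0 was an alternative test. The scripts were tested on simulated data, with changes set in genes of at least 50 CPM. In injured against sham, 21 of 100 genes changed by 1 on the log2 scale were recovered, and 92 of 100 changed by 2. In severe against mild the counts were 35 and 100 of 100, and 9 unchanged genes were called. A gene that was not called may so still have changed. No doublet caller was run, and cells with RNA of other types were counted as described.

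The members and the gene lists were chosen with earlier results of these data known. Named genes were the marker genes, the 10 largest rises and falls past the threshold (at least 50 CPM, groups without overlap, at least as high in fibroblasts as in other cells) for injured against sham and for severe against mild, and per list the 4 most abundant and up to 4 further called members. Other genes, among them Postn, Tnc, Acta2, Mki67, Top2a, Mmp9, Mmp12, Mag, Mog, Mobp and Cnp, and the promoter motifs were chosen after their values were seen. Of 815 list entries, 28 were not matched to 1 gene in the files, Pecam1 among them, so endothelial RNA was read from the other genes of its rule. Promoters came from RefSeq (GRCr8), and no coordinates were converted. Alternatives changed the test, scaling, filter, member rule and libraries used. Summed levels and counts of the oligodendrocyte marker list are not reported here.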

Additional observations from a re-analysis of the deposited data

Results flagged for a closer look

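Among the named genes, 4 were called in both fibroblasts and Tyrobp-rich cells with opposite directions from sham to injury, and with a difference that passed its own test (edgeR, adjusted over all genes, 6 injured libraries against sham replicate 1). Gsta1, a glutathione transferase, had a log2 fold change of -3.06 in fibroblasts and 1.85 in Tyrobp-rich cells, a difference of -4.74 (SE 0.78, adjusted p = 0.0078). Actn1, the actin cross-linker, had 1.92 and -1.93, a difference of 4.03 (SE 0.35, adjusted p = 0.0014). Hmgb2, a chromatin protein, had 2.20 and -1.03, a difference of 3.36 (SE 0.38, adjusted p = 0.0022). Ifitm2, an interferon-induced membrane protein, had -1.15 and 1.54, a difference of -2.51 (SE 0.30, adjusted p = 0.0029). Each fitted difference comes from the joint model and so is not exactly that of the separate values. Tyrobp-rich cells pool macrophages, microglia and neutrophils, and the part of their mix in these opposite directions was not tested. In an evenly spaced sample of them the median was 3020 UMIs in sham replicate 1 and 7428.5 to 16564 after injury. The call of Ifitm2 in fibroblasts was lost without mild replicate 1, without mild replicate 2, with the replicate block, with the stricter members and with sham replicate 2 in the fit, and that of Hmgb2 with the block, the stricter members and cells within 2 SD.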

How the results depend on the processing

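Counts of called genes are given as injured against sham, moderate against mild, severe against mild and severe against moderate (786, 0, 481 and 1271 in the main test). Without a filter on low counts they were 2020, 1373, 1800 and 2871. The fit with the replicate number as a block gave 447, 0, 212 and 548, and the numbers do not pair the libraries, since same-numbered deviations correlated at 0.136, 0.0087 and -0.146. DESeq2 called 363 and 846 in moderate against mild and severe against mild, and library totals 1255 and 2685 in the severe comparisons. With only the groups compared, 4 and 615 were called in moderate against mild and severe against moderate. Strict members, with no Tyrobp and at most 1 endothelial UMI, gave 263, 2, 263 and 56. Adding sham replicate 2 gave 99 in moderate against mild. Cells within 2 SD gave 236 in severe against mild, and leaving out mitochondrial, ribosomal protein and unnamed genes gave 133. Relative to Tyrobp-rich cells the counts were 2242, 3, 320 and 222. Leaving out each library in turn gave 468 to 861, 0 to 18, 64 to 506 and 105 to 1441, with the lone library of a group assumed to vary like the others. Mild replicate 1 gave the lowest count for injured against sham, mild replicate 2 for severe against mild and moderate replicate 2 for severe against moderate. Sham replicate 1 could not be left out of injured against sham. The difference in share passed the threshold under no alternative, at 1.40 to 4.69 points without each library, 1.35 with strict members and 14.2 with non-immune cells as the denominator, though without either sham library no p under 0.143 was possible. Of 157 calls of named genes and 2812 alternatives, 2256 kept the call, 555 lost it and 1 reversed: Ube2c in severe against moderate was -0.25 with cells within 2 SD (main 1.07). All alternatives kept 28 of 77, 8 of 34 and 7 of 46 calls for injured against sham, severe against mild and severe against moderate. The causes were not tested. The fit with sham replicate 2, the change relative to Tyrobp-rich cells and the fit without mitochondrial, ribosomal protein and unnamed genes were chosen after seeing the data.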
